A study of Mus musculus with 6 samples.

Results

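The genes described here encode 9 proteins of folate metabolism: Fpgs, Ggh, Tyms, Shmt1, Shmt2, Mthfd1, Mthfd2, Mthfd1l and Slc19a1. They were taken by symbol from 54232 genes, in all 6 libraries of the series, and all 9 passed the filter on low counts that left 10067 genes to test. The set was chosen by the fold change of Fpgs, which was among the lowest genes under treatment. The difference between the groups in these genes, with the fold changes and SE of the fit over all genes, is therefore given as a description. The calls of that fit are cited for them only as a count, from which nothing is read. Leukaemia cells from terminally ill Eµ-TCL1 mice, in which a B-cell enhancer and promoter drive the TCL1 oncogene, were injected into wild-type C57BL/6J mice, and leukaemic B cells were later sorted from the spleens of these recipients. One group of recipients (CK1i, 3 libraries) had been given PF-670462, which blocks the delta and epsilon forms of casein kinase 1, at 50 mg/kg by mouth in 10% kolliphor in PBS, and the other (CTRL, 3 libraries) the kolliphor and PBS alone. Dosing began on day 5 after the injection and ran for 8 weeks in both groups, with 5 days of treatment followed by 2 days of rest. The age of the mice, the number of leukaemia donors and whether each library came from its own mouse are not given in the sources used here, so the spread between libraries may be partly technical.

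Folates are vitamins that carry single carbon units between enzymes. Cells take up reduced folates through carriers, and attach a chain of glutamates that keeps them inside the cell and raises their affinity for most folate enzymes. Serine supplies most of the carbon, in parallel pathways of the cytosol and the mitochondria, and the carbon is spent on thymidylate, purines and methionine, so that dividing lymphoid cells depend on the cycle and antifolate drugs act on it.

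Library totals ran from 2472064 to 3105137 counts, and a single count equalled 0.322 to 0.405 CPM, the unit that puts libraries of different depth on one scale, and the 9 genes had 395 to 1742 counts each over the 6 libraries. CTRL replicate 1 stood apart from the others on the first principal component (31.4, against -12.4 to 4.68). On the second component CTRL replicate 3 (-26.7) and CK1i replicate 3 (20.7) lay furthest out. Summed levels of 10 B-cell and CLL markers ran from 17860 to 23630 CPM, and none of the 10 was at 0. Ighm gave most of this sum, with means of 13095 CPM in CK1i and 14357 CPM in CTRL. Cd79a was the lowest of the 10, with means of 11.7 CPM in CK1i and 14.7 CPM in CTRL. Of other cell types, NK-cell markers reached 1.97 CPM, neutrophil markers 3.54 CPM and T-cell markers 24.3 CPM at most in any library. The 11 markers of monocytes and macrophages summed to 36.5 to 45.4 CPM in CK1i and 27.3 to 31.1 CPM in CTRL, without overlap. The erythroid markers summed to 80.1 to 98.3 CPM in CK1i and 104 to 125 CPM in CTRL, also without overlap and mostly from Tfrc, the transferrin receptor, which dividing cells of many types express. Plasma cell markers summed to 584 to 1526 CPM in CK1i and 1032 to 1770 CPM in CTRL, with overlap and none at 0. Of the monocyte and macrophage counts Cd68 gave most, with 81 to 106 in CK1i and 59 to 71 in CTRL, while Cd14 and Fcgr1 had 0 counts, C1qa, C1qb and C1qc had at most 2 counts each in a library, and the part of any of these cells in the results was not tested.

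Promoter sequences of 3 genes are shown, chosen after their values were seen. Fpgs had the largest difference between the groups, and Tyms differed most in the other direction. Mthfd2 followed Fpgs most closely among libraries of the same group. RefSeq promoter windows on GRCm38.p6 were found for 8 of the 9 genes. Each run gives the 250 bases before an annotated start, 5′ to 3′ on the gene's strand, and all 3 genes lie on the minus strand. Capitals mark matches on either strand to CCAAT, the core bound by NF-Y (ATTGG when read on the other strand), GGGCGG, the GC box bound by SP1, or CACGTG, the E-box bound by MYC and by the clock factors.
Fpgs promoter, chr2:32694176-32694425: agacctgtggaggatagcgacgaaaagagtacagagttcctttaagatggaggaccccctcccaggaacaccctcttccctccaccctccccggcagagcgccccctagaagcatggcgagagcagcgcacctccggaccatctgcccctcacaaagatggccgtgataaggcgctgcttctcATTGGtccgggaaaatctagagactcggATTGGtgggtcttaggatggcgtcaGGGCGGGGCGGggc
Mthfd2 promoter, chr6:83317605-83317854: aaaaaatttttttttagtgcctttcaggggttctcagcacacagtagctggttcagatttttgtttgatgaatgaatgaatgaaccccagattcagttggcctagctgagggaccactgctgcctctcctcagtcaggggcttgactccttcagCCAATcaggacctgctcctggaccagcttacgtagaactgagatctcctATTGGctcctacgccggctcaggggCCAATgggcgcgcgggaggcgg
Tyms promoter, chr5:30073626-30073875: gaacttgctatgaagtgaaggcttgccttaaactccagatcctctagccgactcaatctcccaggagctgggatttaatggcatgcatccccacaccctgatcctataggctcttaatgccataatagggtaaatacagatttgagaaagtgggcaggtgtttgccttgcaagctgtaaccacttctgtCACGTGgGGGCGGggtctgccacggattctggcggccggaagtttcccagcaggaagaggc

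The Fpgs window held 2 CCAAT matches, at -67 to -63 and -39 to -35 from the start, and 2 GC boxes that share a base, at -14 to -9 and -9 to -4. Mthfd2 held 3 CCAAT matches, the nearest at -22 to -18, and no GC box. Tyms held 1 E-box at -61 to -56, followed by 1 GC box at -54 to -49. Of 32851 windows of this length over all genes, 33.8% held CCAAT, 32.7% a GC box and 6.02% the E-box, so CCAAT and GC matches of this kind are common. No match to TGATGNAA, a core of the ATF4 response element found in 3.45% of all windows, or to TTTCCCGC, one form of the E2F site found in 0.895%, lay in the windows of the 8 genes. The Fpgs and Mthfd2 windows lie inside longer gene models of the GENCODE M21 annotation, whose first exons are further upstream. The libraries read the 3′ ends of transcripts and so do not show which start was used.

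Fpgs encodes folylpolyglutamate synthase, which adds the glutamate chain. It was measured at 18.8, 19.6 and 14.8 CPM in CK1i replicates 1 to 3 and at 25.2, 30.3 and 31.4 CPM in CTRL replicates 1 to 3. All CK1i libraries lay below all CTRL libraries. The CK1i mean was 17.7 ± 2.53 CPM against 29.0 ± 3.31 CPM for CTRL (SD, n = 3), a ratio of 0.612 and a log2 fold change of -0.70 ± 0.20 (SE). This is the value that chose the set; it lay at percentile 1.22 of all tested genes. Counting error alone is wide at this depth: the 37 counts of CK1i replicate 3 gave 14.97 CPM before scaling (95% Wilson interval 10.9 to 20.6, for counting error only). The 60 counts of CK1i replicate 2, the highest of its group, gave 19.7 CPM (15.3 to 25.4). The 71 counts of CTRL replicate 1, the lowest of its group, gave 24.8 CPM (19.7 to 31.3), so the intervals of these neighbouring libraries overlap. The log2 fold change stayed between -0.80 and -0.60 with any 1 library left out. The gene (ENSMUSG00000009566) lies on chromosome 2 from 32682609 to 32704145 of GRCm38, where its only overlapping neighbours, Eng and Mir8093, had 1 and 0 counts in all. Because the cells were profiled in bulk, fewer cells with a transcript and less of it per cell cannot be told apart.

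Slc19a1, the reduced folate carrier of the plasma membrane and the uptake route of methotrexate, was the other member without overlap. It had 27.6, 38.8 and 37.7 CPM in CK1i replicates 1 to 3 and 44.0, 42.7 and 67.8 CPM in CTRL replicates 1 to 3. CTRL replicate 3 stood well above the other libraries, while the highest CK1i and the lowest CTRL library were close. The log2 fold change was -0.57 ± 0.21 (SE), and ran from -0.70 without CTRL replicate 2 to -0.32 without CTRL replicate 3. The gene is at chromosome 10, 77032241 to 77061002.

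Ggh encodes gamma-glutamyl hydrolase, the lysosomal enzyme that removes the glutamates that Fpgs adds. Its levels were 56.3, 45.7 and 65.0 CPM in CK1i replicates 1 to 3 and 45.8, 57.5 and 49.1 CPM in CTRL replicates 1 to 3. The CTRL range lay within that of CK1i. The log2 fold change was 0.13 ± 0.17 (SE), from -0.00050 without CK1i replicate 3 to 0.25 without CK1i replicate 2; leaving out CTRL replicate 1 gave 0.060. The ratio of Ggh to Fpgs counts was 3.0, 2.33 and 4.38 in CK1i and 1.82, 1.90 and 1.56 in CTRL replicates 1 to 3. This ratio was thus higher in each CK1i library than in any CTRL library, by a mean of 3.24 ± 1.04 against 1.76 ± 0.173 (SD, n = 3), and since it contains the Fpgs counts that chose the genes it adds no independent evidence.

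**Figure D1:**
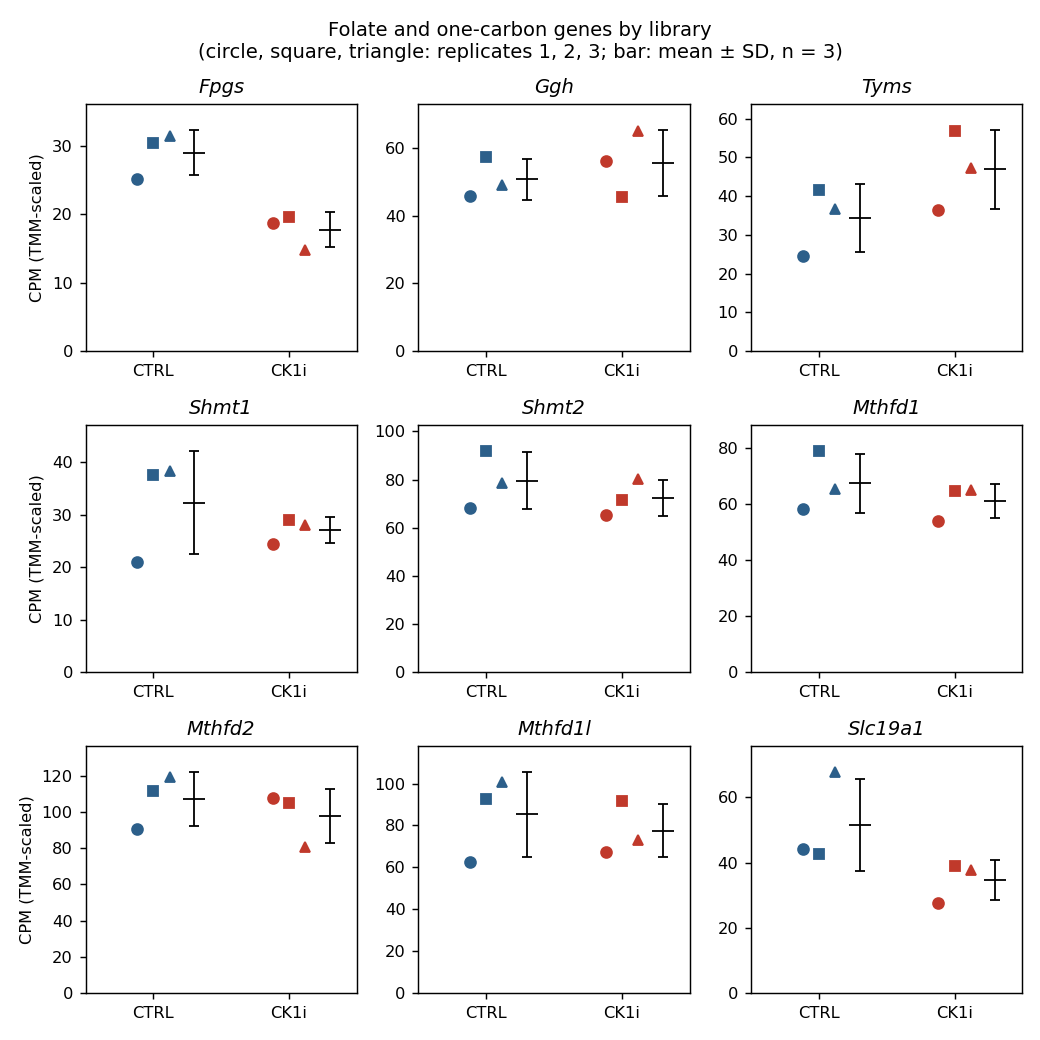
Each panel plots 1 gene, with TMM-scaled CPM on the y axis from 0 and the groups on the x axis; circles, squares and triangles are replicates 1, 2 and 3, and bars give the mean ± SD (n = 3). Fpgs and Slc19a1 are the panels in which no CK1i library reaches the CTRL libraries. CTRL replicate 1 is the lowest of its group in every panel except Slc19a1.

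The thymidylate step had higher mean values in CK1i. Tyms encodes thymidylate synthase, which uses a folate to turn dUMP into dTMP for DNA synthesis and is the target of fluorouracil. It had 36.5, 56.8 and 47.3 CPM in CK1i replicates 1 to 3 and 24.5, 41.5 and 36.7 CPM in CTRL replicates 1 to 3. The groups overlapped, CK1i replicate 1 lying at the level of CTRL replicate 3. The log2 fold change was 0.45 ± 0.22 (SE), from 0.26 without CTRL replicate 1 to 0.61 without CK1i replicate 1. A list of 26 cell division genes was set beside Tyms. Its mean log2 CPM over 25 tested members was 6.47, 6.93 and 6.51 in CK1i replicates 1 to 3. In CTRL replicates 1 to 3 it was 5.37, 6.24 and 6.03. Unlike Tyms, the list mean did not overlap between the groups. Both Tyms and this list were lowest in CTRL replicate 1 and highest in CK1i replicate 2, and the part of cell division in the Tyms values was not tested.

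The serine hydroxymethyltransferases, which move a carbon from serine to tetrahydrofolate, had overlapping values in the groups. Shmt1, the cytosolic enzyme, had 24.3, 29.0 and 28.1 CPM in CK1i and 20.9, 37.5 and 38.4 CPM in CTRL replicates 1 to 3, so that the CK1i libraries lay inside the spread of CTRL. Its log2 fold change was -0.25 ± 0.23 (SE), from -0.49 without CTRL replicate 1 to -0.10 without CTRL replicate 3. The 3′ neighbourhood of Shmt1 overlaps Smcr8 on the other strand, which had 651 counts against 501 for Shmt1; the strand setting of the counting is not given, so the Shmt1 counts are uncertain. Shmt2, the mitochondrial enzyme, had 65.1, 71.4 and 80.2 CPM in CK1i and 68.2, 91.8 and 78.5 CPM in CTRL, a log2 fold change of -0.14 ± 0.16 (SE), from -0.24 without CTRL replicate 1 to -0.029 without CTRL replicate 2. The ratio of Shmt2 to Shmt1 counts was 2.66 ± 0.198 in CK1i and 2.58 ± 0.617 in CTRL (SD, n = 3), with overlap, so the balance of the mitochondrial and the cytosolic form showed no difference larger than the spread of the libraries.

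The enzymes that interconvert one-carbon folates lay within the same spread. Mthfd1, a cytosolic protein with dehydrogenase, cyclohydrolase and synthetase activity, had 54.0, 64.6 and 65.0 CPM in CK1i and 58.2, 79.0 and 65.4 CPM in CTRL replicates 1 to 3. Mthfd2, a mitochondrial dehydrogenase and cyclohydrolase that is high in many tumours, had 108, 105 and 80.6 CPM in CK1i and 90.5, 112 and 119 CPM in CTRL. Mthfd1l, the mitochondrial formate-producing synthetase, had 67.5, 91.7 and 73.0 CPM in CK1i and 62.5, 92.6 and 101 CPM in CTRL. In all 3 genes the groups overlapped, and the log2 fold changes were -0.14 ± 0.16 for Mthfd1, -0.13 ± 0.16 for Mthfd2 and -0.14 ± 0.19 for Mthfd1l (SE). Without CTRL replicate 1 they were -0.24, -0.24 and -0.32, and each came near 0 without another library: Mthfd1 -0.024 without CTRL replicate 2, Mthfd2 -0.018 without CK1i replicate 3 and Mthfd1l 0.00023 without CTRL replicate 3. The ratios of Mthfd2 and Mthfd1l to Mthfd1 counts were 1.62 ± 0.38 and 1.26 ± 0.148 in CK1i and 1.597 ± 0.207 and 1.26 ± 0.247 in CTRL (SD, n = 3).

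**Figure D2:**
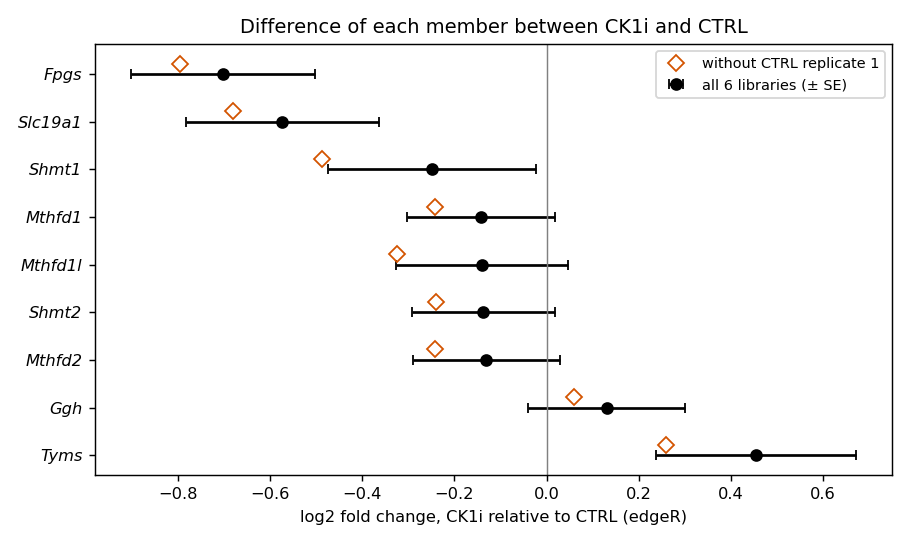
The x axis gives the log2 fold change of CK1i relative to CTRL from edgeR and the y axis the 9 genes; filled points are the fit to all 6 libraries with bars of 1 SE, and open diamonds the fit without CTRL replicate 1. Fpgs (-0.70) and Slc19a1 (-0.57) lie furthest to the left and Tyms (0.45) to the right, and every diamond lies to the left of its point.

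Over the 9 genes, 7 had lower and 2 higher values in CK1i, with a median log2 fold change of -0.14, beside -0.0055 over all tested genes, of which 5150 were lower and 4917 higher. None of the 9 passed an adjusted p under 0.05 in edgeR's quasi-likelihood test, nor did any of the 10067 genes (0% called; DESeq2 called 8 genes, none of them among the 9; 473 genes, or 4.7%, had an unadjusted p under 0.05). All CK1i libraries lay below all CTRL libraries in 2 of the 9 genes, Fpgs and Slc19a1, where 4.48% of all tested genes had this order, and above them in 0, against 5.22%. The contrast chose the genes, so nothing is read from these shares. Leaving out CTRL replicate 1 moved the median to -0.24, and leaving out CK1i replicate 1 moved it to -0.070.

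By mean level over the 6 libraries the order was Mthfd2 (102 CPM), Mthfd1l (81.3), Shmt2 (75.9), Mthfd1 (64.4), Ggh (53.2), Slc19a1 (43.1), Tyms (40.6), Shmt1 (29.7) and Fpgs (23.3). In 3′ end libraries a transcript gives about the same number of reads whatever its length, so CPM were compared without division by length. Each neighbour in this order overlapped the next in its range over libraries. Mthfd2, the most abundant, ranged from 80.6 to 119 CPM and stood at percentile 79.5 of tested genes, while Fpgs ranged from 14.8 to 31.4 CPM and stood at percentile 37.1. Of the 9 genes, the 3 mitochondrial enzymes had the highest mean levels in these leukaemia cells, and Fpgs had the lowest mean in both groups.

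Libraries of the same group differed from each other in several of these genes at once. In CTRL replicate 1 all 9 genes were below the mean of their group, by 0.14 log2 units in Ggh to 0.56 in Shmt1. In CK1i replicate 1, 3 of the 9 were above their group's mean, Fpgs, Ggh and Mthfd2, and in CK1i replicate 2 all but Ggh and Shmt2 were. Across the 6 libraries 30 of the 36 pairs of genes had a positive Pearson correlation of log2 CPM, with a median of 0.43. The closest pair was Shmt2 with Mthfd1 (r = 0.955), followed by Shmt1 with Mthfd1l (r = 0.927), which join a mitochondrial to a cytosolic enzyme in each case. With the group means removed, Fpgs was closest to Mthfd2 (r = 0.981), and both were lowest in CK1i replicate 3 within that group. Tyms was then closest to Mthfd1l (r = 0.92). Without that removal, Ggh was the gene least tied to the rest, with r from -0.439 to 0.444 with the other 8. With the group means removed, the r of Ggh ran from -0.359 with Fpgs to 0.665 with Shmt2. These correlations rest on 6 libraries, share library depth and scaling, and carry no test. With the group means removed, fewer independent values than libraries remain. The closest pairs were picked after all pairs were seen, which favours a high r.

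**Figure D3:**
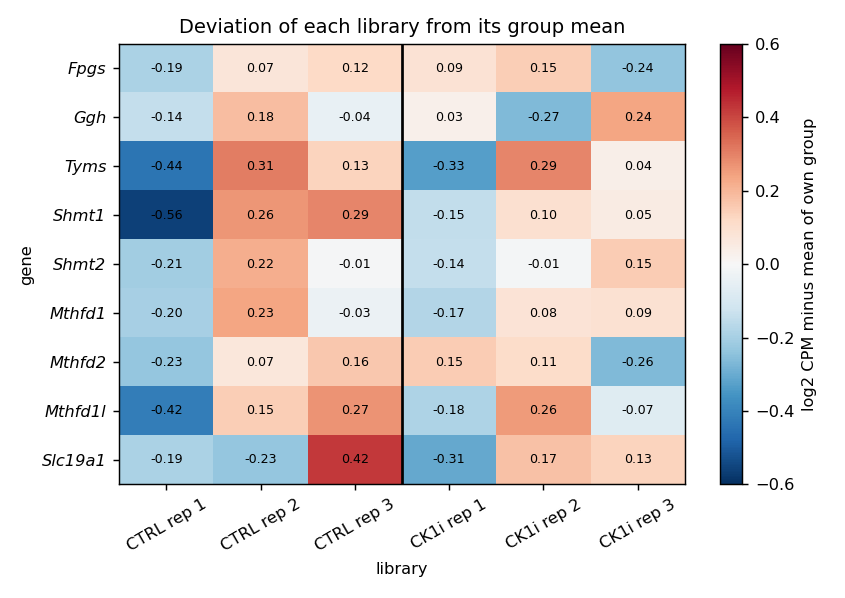
Rows are the 9 genes and columns the 6 libraries; the colour and the printed value give log2 CPM minus the mean of the library's own group, blue below and red above. The column of CTRL replicate 1 is blue throughout, with its lowest value of -0.56 in Shmt1.

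Among 8790 tested genes with a mean of at least 5 CPM, outside the 9, those whose log2 CPM followed Fpgs most closely over the 6 libraries were Bap1 (r = 0.996), Nol9 (0.987), Mrpl27 (0.973), Srek1ip1 (0.966) and Smyd5 (0.965). Bap1 encodes a nuclear deubiquitinase, Nol9 a kinase of ribosomal RNA processing and Mrpl27 a mitochondrial ribosomal protein. All 5 had CK1i libraries below all CTRL libraries, which the likeness to Fpgs favours. Taking the highest of 8790 correlations over 6 libraries also favours values near 1, so no tie to Fpgs is read from them. The largest difference was that of Smyd5, a SET and MYND domain methyltransferase, with a CK1i mean of 23.2 ± 2.80 CPM against 35.9 ± 3.44 CPM for CTRL (SD, n = 3).

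The rest of the pathway was described with 7 lists of genes set by textbook role, which held 78 genes outside the 9, of which 61 could be tested. Of these 61 genes 0 passed in edgeR in either direction (0% called over all genes), 31 had higher and 30 lower values, and 4 had an unadjusted p under 0.05. The groups did not overlap in 5 of them, or 8.2%, beside 9.7% of all tested genes. Their median log2 fold change was 0.0011.

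Other folate transporters were mostly too low to test. Of 9 listed, 3 were tested: Izumo1r, Abcc1 and Abcc4. All 3 had lower values, by unlike amounts given below, with a median log2 fold change of -0.24 and 0 past the threshold. Folr1, a folate receptor, was at 0 counts throughout, a level of at most 0.176 CPM (3 counts over the 6 libraries). Folr2, another receptor, and Slc46a1, the proton-coupled carrier, had 12 and 19 counts in all, so of the listed carriers and receptors known to take up folate Slc19a1 alone had more than 20 counts in all. Izumo1r, of the folate receptor family but known as the egg receptor Juno and from regulatory T cells, was counted 17, 17 and 10 times in the CK1i libraries, replicates 1 to 3, against 19, 42 and 30 times in CTRL. Its log2 fold change of -1.11 ± 0.36 (SE) did not pass (edgeR adjusted p = 0.858). T-cell markers summed to 2.63 to 24.3 CPM in CK1i and 4.85 to 12.7 CPM in CTRL, and their part in the Izumo1r counts was not tested. Abcc1, a drug and folate exporter, had -0.24 ± 0.17 (edgeR adjusted p = 0.999). The value of Abcc4 was close to 0, at -0.079 ± 0.20 (SE), and its groups overlapped.

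Among enzymes of folate interconversion 7 of 10 were tested, 4 with higher and 3 with lower values and 0 past the threshold (median 0.0011). Mthfsl, a homologue of the enzyme that recycles 5-formyltetrahydrofolate, had -0.27 ± 0.32 (edgeR adjusted p = 0.999).

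Genes that feed carbon into the cycle were mixed. In the serine supply list all 10 genes were tested, 6 higher and 4 lower, with a median of 0.038 and 0 past the threshold. Slc1a4, a transporter of serine and other neutral amino acids, was counted 53, 47 and 19 times in the CK1i libraries, replicates 1 to 3, against 85, 73 and 74 times in CTRL. The groups did not overlap, and its log2 fold change was -1.03 ± 0.26 (SE), which did not pass (edgeR adjusted p = 0.545). The glutamine carrier Slc1a5 had -0.11 ± 0.13 (edgeR adjusted p = 0.999). The serine synthesis enzymes Phgdh, Psat1 and Psph had -0.19 ± 0.30, 0.083 ± 0.23 and 0.10 ± 0.18, and Sfxn1, the mitochondrial serine carrier, 0.059 ± 0.16. In the glycine cleavage system 3 of 4 genes were tested, 1 higher and 2 lower, with 0 past the threshold and a median of -0.21. Gldc, its glycine decarboxylase, had 0 counts, while Amt, the aminomethyltransferase, had -0.53 ± 0.47 and Gcsh, the carrier protein, -0.21 ± 0.24 (edgeR adjusted p = 0.999 for both). Amt had 38 counts in CTRL replicate 1 and 11 to 19 in every other library.

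The lists of pathways that spend the carbon, not all of whose genes use it, showed no common direction. In de novo purine synthesis 7 of 13 tested genes had higher and 6 lower values (median 0.0089), with 0 past the threshold. Paics, a bifunctional enzyme of the middle of that pathway, had 0.32 ± 0.16 and Adssl1, an adenylosuccinate synthase, 0.46 ± 0.28 (SE; edgeR adjusted p = 0.999 for both). The folate-using enzymes Gart and Atic had -0.27 ± 0.18 and -0.15 ± 0.18. In thymidylate and deoxynucleotide supply 9 of 14 tested genes were higher and 5 lower (median 0.061), again with 0 past the threshold. Rrm1, the large subunit of ribonucleotide reductase, averaged 94.9 ± 13.9 CPM over the CK1i libraries against 65.7 ± 16.1 CPM over CTRL (SD, n = 3), without overlap (log2 fold change 0.53 ± 0.18, edgeR adjusted p = 0.929). Cad, of pyrimidine synthesis, had -0.30 ± 0.24 (edgeR adjusted p = 0.999). In the methionine cycle and polyamines 4 of 11 tested genes were higher and 7 lower (median -0.12), with 0 past the threshold. Srm, spermidine synthase, had -0.47 ± 0.21 and Ahcyl2, a homologue of adenosylhomocysteinase, 0.16 ± 0.15 (edgeR adjusted p = 0.999 for both). For comparison, the cell division list had all 25 tested members higher, with a median of 0.77 and 0 past the threshold.

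**Figure D4:**
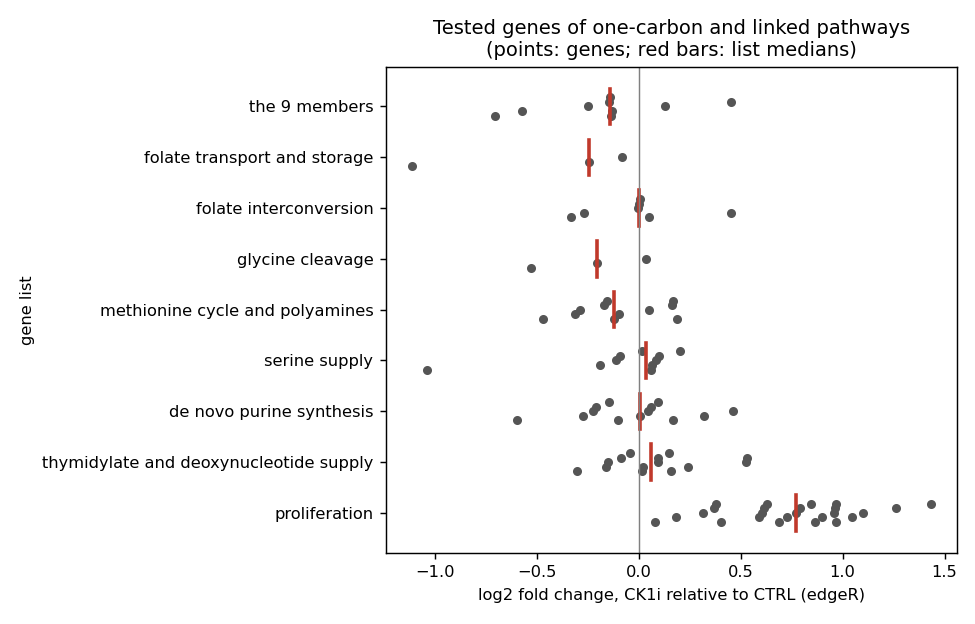
Each point is a tested gene, placed by its log2 fold change of CK1i relative to CTRL on the x axis and by its list on the y axis; the small vertical offsets only separate points, and red bars are list medians. The one-carbon and nucleotide lists have medians between -0.24 and 0.061, while the cell division list has its median at 0.77.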

How the data were processed

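The authors deposited raw counts per gene, as whole numbers, made from QuantSeq 3′ forward libraries with unique molecular identifiers (UMIs), per the labels' protocols. The submitters' processing notes list UMI-tools 1.1.1, Trimmomatic 0.36, STAR 2.7.3a and featureCounts 1.6.3 with build GRCm38.p6, without role or order. UMI collapsing and the strand of counting are not described there. GENCODE M21 (GRCm38) gave the symbols of 22496 genes that the table leaves unnamed.

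Counts were filtered with filterByExpr (minimum count 10, minimum total 15), scaled by TMM and fitted in R 4.3.3 with edgeR 4.0.16 (robust quasi-likelihood F test, two-sided, Benjamini-Hochberg over 10067 genes, threshold 0.05). The SE is the log2 fold change divided by the root of F. Log2 CPM used a prior count of 2. The procedure was tested on simulated data. Alternatives were DESeq2 1.42.0, limma-voom (limma 3.58.1), DESeq2's size factors, no filter, a stricter filter (20 counts in 3 libraries) and each library left out. Replicates were numbered in accession order.

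The members and lists were chosen with earlier results of these data known. From each of the 7 lists, genes past the threshold were named, or otherwise up to 2 with the smallest p; genes most like Fpgs were the 5 with the highest correlation, without Gm or Rik models, immunoglobulin segments and pseudogenes. Any other gene outside the 9 was named after its values were seen. Some genes that the rule takes are left out of the text.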

Additional observations from a re-analysis of the deposited data

How the results depend on the processing

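Over all tested genes edgeR called 0 higher and 0 lower; DESeq2 called 6 higher and 2 lower, and edgeR with no filter 2 higher and 1 lower. With 1 library left out, 0 to 1 were called higher and 0 to 1 lower: 1 higher without CK1i replicate 2, and 1 lower without CTRL replicate 1 and also without CTRL replicate 3. limma-voom, DESeq2's size factors and the stricter filter called 0. None of these calls was one of the 9 genes or of the 7 pathway lists. The log2 fold change of Ggh was -0.00050 without CK1i replicate 3 (range over left-out libraries -0.00050 to 0.25) and that of Mthfd1l 0.00023 without CTRL replicate 3 (-0.32 to 0.00023); the other 7 genes kept their direction in all alternatives run. With 1 library left out, the number of lower genes was 6 to 8 and the median of the 9 was -0.24 to -0.070. No paired analysis was possible because the labels give the groups no shared replicate numbers. Depth limits the low genes most: the 37 to 94 counts of Fpgs per library leave wide counting intervals, and transporters with under 20 counts in all could not be tested.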

Other observations

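Several genes that the pathway needs were listed at very low counts. Mat2a, which encodes the catalytic subunit that makes S-adenosylmethionine in most tissues, had 10 counts over the 6 libraries, while Mat2b, its regulatory partner, had 1945. Slc25a32, the mitochondrial folate carrier, had 8 counts, and Impdh2, of guanine nucleotide synthesis, had 116 counts, 41 of them in CTRL replicate 1. Particl, on the other strand of Mat2a, had 0 counts, and Ndufaf3, which overlaps 48 bases of Impdh2 on the other strand, had 376. The cause of these low values was not tested.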
